A study of Mus musculus with 6 samples.

Results

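Genes that protect cells from misfolded protein were examined in sorted mouse blood stem cells that carry an altered Mecom allele. The set holds 40 listed genes of the unfolded protein response, the integrated stress response and the heat shock response, chosen by symbol. Of these, 37 had a row among the 18465 genes of the deposited table, and Chac1, Hspa1a and Hspa1b are not analysed here. The 40 were split by role into 10 endoplasmic reticulum (ER) chaperones, 8 genes of the ATF6 or XBP1 branch, 10 genes of the ATF4 and CHOP branch and 12 heat shock genes.

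The cells were SLAM-LSK cells of bone marrow, which lack lineage markers and CD48 and carry CD150, Sca-1 and c-Kit, a fraction enriched for haematopoietic stem cells. There were 3 libraries labelled WT and 3 labelled MecomWT:R751W, a genotype with 1 normal and 1 R751W allele of Mecom, all on C57BL/6. The labels name no other agent or treatment and call the libraries of each genotype biological replicates. Neither the age of the mice nor whether each library came from a separate mouse was given in the sources used here, so the p-values speak only of the spread among these libraries. Mecom encodes a zinc finger transcription factor needed to maintain stem cells.

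In the unfolded protein response, 3 sensors in the ER membrane respond to misfolded protein. IRE1 splices the Xbp1 mRNA, ATF6 is cut to release a transcription factor, and PERK phosphorylates the translation factor eIF2alpha. The integrated stress response shares that last step with other kinases such as GCN2, and it favours translation of ATF4, which then induces CHOP and GADD34. In the cytosol, HSF1 induces chaperones of the HSP70, HSP90 and HSP40 families. Blood stem cells make little protein compared with their progeny and are known to be sensitive to protein misfolding. Gene totals of mRNA do not measure Xbp1 splicing, eIF2alpha phosphorylation or translation of Atf4.

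Levels are in TPM, reads per unit of gene length as a share of 1000000 in each library. The TPM values imply 10427533 to 12378149 reads per library, and every member with a row had at least 410 implied reads over the 6 libraries. Of the 10 SLAM-LSK markers, 10 had a row, with Kit at 137 to 198 TPM over all libraries. Ly6a was at 13.2, 12.3 and 10.3 TPM in WT and 10.1, 8.64 and 11.2 TPM in MecomWT:R751W. Slamf1, which encodes CD150, was at 10.1, 9.50 and 12.8 TPM in WT and 16.5, 12.2 and 14.7 TPM in MecomWT:R751W. Both overlapped between genotypes. At an unadjusted p under 0.05, 2 of the 10 markers were higher and 1 lower, against 2.74% and 3.23% of all tested genes. Cd48, which the sort selects against, was at 2.18, 1.85 and 1.02 TPM in WT and 3.24, 2.27 and 4.10 TPM in MecomWT:R751W, with no overlap. Marker lists of other cells were summed. The list of genes the sort excludes (3 of 9, Cd48, Cd4 and Itgam) stood at 5.97 to 11.4 TPM in WT and 6.63 to 12.7 TPM in MecomWT:R751W libraries. Of its 3 genes, 2 were higher at an unadjusted p under 0.05, against 2.74% of all tested genes. The T and NK cell list (4 of 12, Cd4, Lck, Nkg7 and Thy1) stood at 8.44 to 9.58 and 18.6 to 21.2 TPM, with no overlap. All 4 of its genes lay above 0 between genotypes, with a median log2 fold change of 0.75 and 3 higher at that p. The B and plasma cell list (2 of 13, Cd79b and Sdc1) stood at 6.29 to 10.4 and 7.06 to 8.99 TPM. Of these 2 genes, Sdc1 was lower at that p, against 3.23% of all tested genes. It was at 2.34, 2.21 and 0.988 TPM in WT and 0.882, 0.532 and 1.05 TPM in MecomWT:R751W, with overlap. The neutrophil and monocyte list (6 of 13) stood at 103 to 132 and 90.7 to 118 TPM, the erythroid list (11 of 12) at 332 to 412 and 328 to 403 TPM, and the megakaryocyte list (9 of 10) at 160 to 215 and 142 to 200.2 TPM. Of the neutrophil and monocyte genes, 5 of 6 lay below 0 between genotypes, with a median log2 fold change of -0.17. Of the megakaryocyte genes, 7 of 9 lay below 0, with a median of -0.10 and a lowest value of -1.69. At an unadjusted p under 0.05, 1 megakaryocyte gene was higher and 1 lower. Although the summed erythroid level overlapped, 9 of the 11 genes lay above 0 between genotypes, with a median log2 fold change of 0.34. At an unadjusted p under 0.05, 4 of the 11 were higher, against 2.74% of all tested genes. The mean log2(TPM + 1) of the erythroid list was 2.58, 2.43 and 2.18 in WT and 2.92, 3.03 and 2.73 in MecomWT:R751W, with no overlap. The erythroid gene Hba-a1 was at 0 in at least 1 library, and no other marker with a row was. In such bulk samples, fewer cells of a type and less RNA per cell cannot be told apart, and the part of these cells in the results was not tested.

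As a whole, the stress genes were close to equal in both genotypes, with a few lower ones in MecomWT:R751W cells. With limma on log2(TPM + 1) and Benjamini-Hochberg adjustment over 16655 genes, 0 of 37 members passed an adjusted p of 0.05, and 0.0% of all tested genes did. At an unadjusted p under 0.05 there were 4 lower members, Ppp1r15a, Hspa5, Atf4 and Dnajb1, beside 3.23% of all tested genes, and 0 higher members, beside 2.74%. The 3 MecomWT:R751W values lay wholly below the WT values in 3 members, Hspa5, Atf4 and Dnajb1, where 4.7% of all tested genes did, and wholly above in 2, Hspa8 and Hsph1, where 4.5% did. The median log2 fold change of the 37 was -0.07, against -0.004 over all tested genes. Of the 37, 26 lay below 0, 70.3% of them, against 51.0% of all tested genes. A log2 fold change is MecomWT:R751W minus WT on the log2(TPM + 1) scale, which understates differences of low genes, and the standard error (SE) stands beside it.

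**Figure D1:**
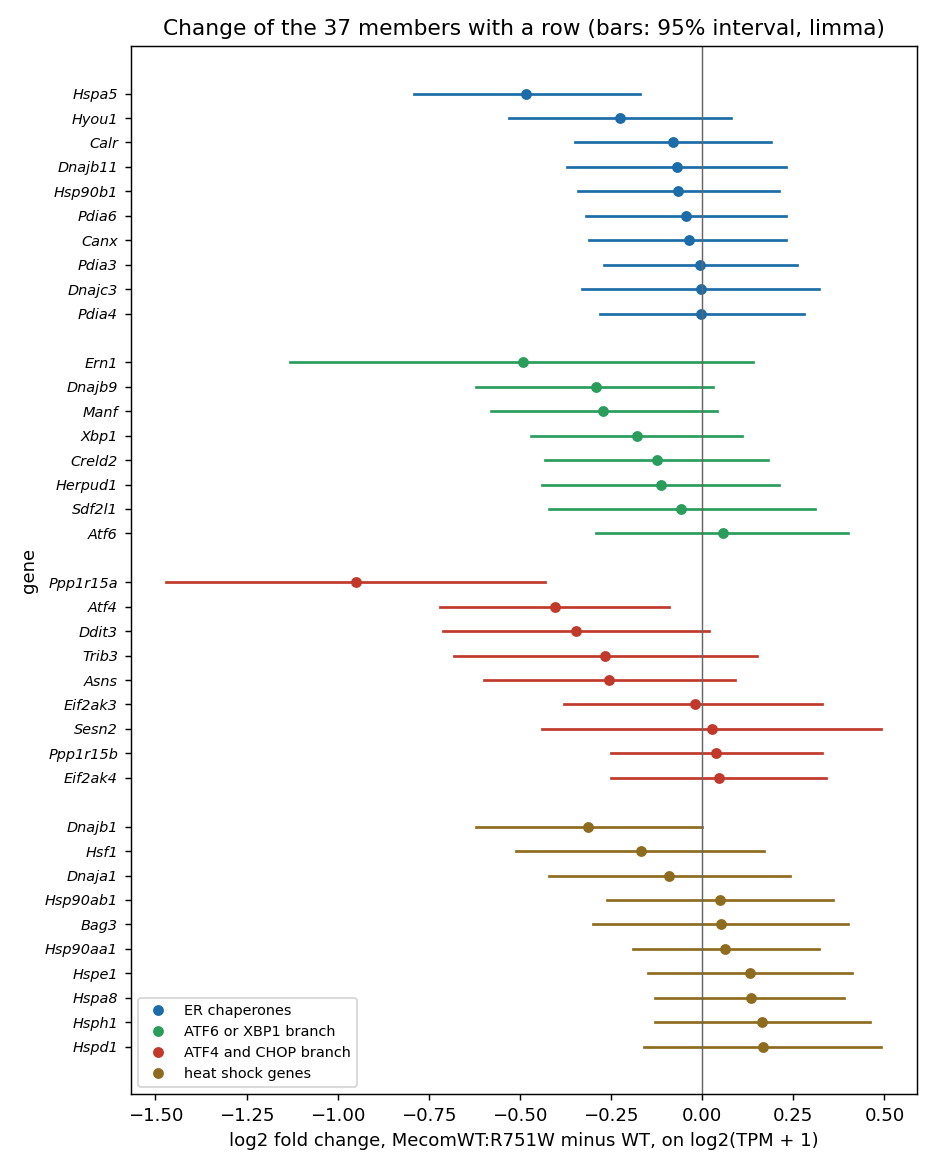
Log2 fold change of the 37 members with a row (x axis, MecomWT:R751W minus WT on log2(TPM + 1)), by gene and group, with points for the estimate and bars for the 95% interval from limma over 3 libraries per genotype. Ppp1r15a, Hspa5, Atf4 and Dnajb1 have intervals below 0, and Hspa8, Hsph1, Hspd1 and Hspe1 lie to the right of 0 with intervals that cross it.

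ER chaperones bind and fold proteins in the ER lumen, and in many cells their genes are induced together through an ER stress response element (ERSE), which is bound by ATF6 and XBP1 with the factor NF-Y. It reads CCAAT, then any 9 bases, then CCACG. Promoter windows of RefSeq (GRCm38.p6, 250 bases before to 50 after a start) were found for 32 of the 40 listed members and searched on both strands. The element was present in 6 of 9 ER chaperone genes that had a window, in 1 of 6 genes of the ATF6 or XBP1 branch, and in 0 of 9 and 0 of 8 of the other groups, while 0.119% of all 32851 windows held it. These 8 matches are shown because the genes share the element but not the size of their difference between genotypes. Only exact letters were searched, so near matches are not counted, and the part of the element in any difference was not tested. Each is printed 5′ to 3′ on the strand on which it reads CCAAT, with the match in capitals, in the order Hspa5 (chr2:34772019-34772049, plus strand), Calr (chr8:84847069-84847099, plus), Hsp90b1 at its farther match (chr10:86705632-86705662, minus) and its nearer match (chr10:86705527-86705557, plus), Canx (chr11:50325794-50325824, minus), Pdia6 (chr12:17266485-17266515, plus), Dnajc3 (chr14:118937821-118937851, plus) and Creld2 (chr15:88819514-88819544, minus).
Hspa5: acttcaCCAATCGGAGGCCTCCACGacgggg
Calr: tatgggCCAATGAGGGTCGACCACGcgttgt
Hsp90b1 farther: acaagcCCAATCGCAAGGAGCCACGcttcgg
Hsp90b1 nearer: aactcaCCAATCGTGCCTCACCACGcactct
Canx: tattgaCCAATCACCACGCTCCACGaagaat
Pdia6: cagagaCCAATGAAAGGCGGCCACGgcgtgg
Dnajc3: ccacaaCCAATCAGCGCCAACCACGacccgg
Creld2: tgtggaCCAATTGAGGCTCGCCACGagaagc

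Hspa5 encodes BiP, the HSP70 of the ER lumen, which also holds the stress sensors inactive. The gene lies on chromosome 2 from 34772090 to 34776529 (GRCm38.p6). Its level was 347, 281 and 249 TPM in the WT libraries, in the order of replicates 1 to 3 used throughout, and 230.05, 196 and 196 TPM in the MecomWT:R751W libraries. Every MecomWT:R751W library lay below every WT library, and the mean was 71.0% of that in WT. The log2 fold change was -0.48 (SE 0.14, 95% interval -0.79 to -0.17), with an adjusted p of 0.529 by limma and an exact two-sided permutation p of 0.1, the smallest that 3 libraries against 3 allow. Rabepk, a gene that overlaps Hspa5 in the annotation, averaged 16.3 TPM, and the counting of overlapping reads was not given in the sources used here. Besides the ERSE, the Hspa5 window held a match to TGACGTGA, which with TGACGTGG was searched as the XBP1 and ATF6 element UPRE and was in 1.12% of all windows. The stretch with both, chr2:34771923-34772053 on the plus strand, reads as follows, with both matches in capitals.
Hspa5: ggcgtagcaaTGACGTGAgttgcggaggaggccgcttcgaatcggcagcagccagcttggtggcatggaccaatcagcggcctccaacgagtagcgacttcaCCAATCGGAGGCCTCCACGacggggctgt

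Apart from Hyou1, the other ER chaperones stood nearly level between genotypes. Hsp90b1, the HSP90 of the ER known as GRP94, was at 357, 282 and 295 TPM in WT and 302, 287 and 299 TPM in MecomWT:R751W, a log2 fold change of -0.07 (SE 0.13, 95% interval -0.34 to 0.21). Calr, the lectin chaperone calreticulin, was at 548, 466 and 506 TPM in WT and 458, 495 and 485 TPM in MecomWT:R751W (-0.08, SE 0.12, 95% interval -0.35 to 0.19). Hyou1, a large HSP70 relative that exchanges nucleotide on BiP, was at 36.4, 29.95 and 27.4 TPM in WT and 25.6, 26.2 and 27.5 TPM in MecomWT:R751W (-0.22, SE 0.14). The groups overlapped in all 3 genes, and in Hyou1 the log2 fold change was -0.11 without WT replicate 1.

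Canx, the membrane-bound partner of calreticulin, had means of 211 and 205 TPM. The disulfide isomerases Pdia3, Pdia4 and Pdia6 had means of 158 and 157, 75.2 and 74.6, and 83.4 and 80.8 TPM, and the HSP40 co-chaperones Dnajb11 and Dnajc3 had means of 19.7 and 18.7, and 27.9 and 27.8 TPM. The log2 fold changes of these 6 lay between -0.069 (Dnajb11) and -0.003 (Pdia4), all within their SE. Of the 10 ER chaperones, 10 were below 0, with a median of -0.06, but 3 of them, Dnajc3, Pdia3 and Pdia4, turned to 0.009, 0.008 and 0.01 when libraries were centred on their medians. Without WT replicate 1, which held the highest value of all 10, the median was 0.04, against 0.033 over all tested genes.

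The ERSE genes other than Hspa5 had log2 fold changes of -0.08 (Calr), -0.07 (Hsp90b1), -0.04 (Canx), -0.04 (Pdia6), -0.004 (Dnajc3) and -0.12 (Creld2). To set Hspa5 against its group free of any scaling between libraries, its log2 TPM was compared with the mean log2 TPM of the other 9 ER chaperones within each library, a measure chosen after the values were seen. The log2 ratio was 1.71, 1.70 and 1.48 in WT and 1.35, 1.18 and 1.08 in MecomWT:R751W libraries. The groups did not overlap, and the difference in the ratio was -0.42 (SD 0.13 and 0.14, n = 3 each, exact two-sided permutation p = 0.1), ranging from -0.50 to -0.36 with each library left out. As Hspa5 was already apart between genotypes when it was picked, this p is not a separate test. Against Hsp90b1 alone, whose promoter also holds the ERSE, the difference was -0.42 as well.

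**Figure D2:**
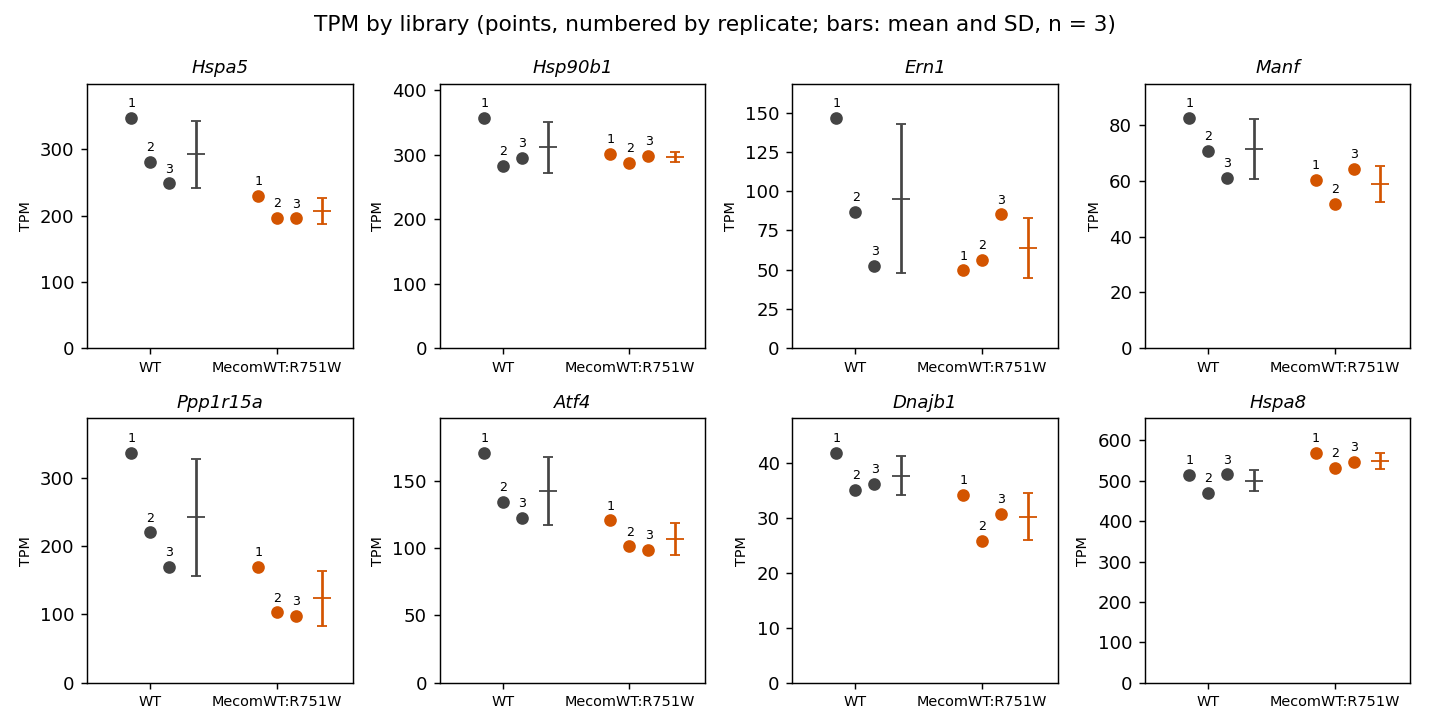
TPM (y axes, from 0) of 8 members in 3 WT and 3 MecomWT:R751W libraries, as points numbered by replicate, with bars for the mean and SD. Hspa5, Atf4 and Dnajb1 are lower in every MecomWT:R751W library, Hspa8 is higher in every one, and Hsp90b1, Ern1, Manf and Ppp1r15a overlap, the last only between WT replicate 3 and MecomWT:R751W replicate 1.

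In the ATF6 or XBP1 branch, the sensors showed no shared direction and 7 of 8 members lay below 0, with a median of -0.15 that was -0.08 without WT replicate 1. All tested genes had a median of 0.033 without that library. Ern1, which encodes the sensor IRE1alpha, varied most among libraries. It was at 146, 86.7 and 52.5 TPM in WT and at 49.4, 56.3 and 85.2 TPM in MecomWT:R751W, so the genotypes overlapped widely. Its log2 fold change of -0.49 (SE 0.29, 95% interval -1.13 to 0.14) became -0.12 without WT replicate 1 and -0.85 without WT replicate 3. Atf6, the cleaved sensor, was at 8.58, 8.25 and 8.70 TPM in WT and 10.3, 7.84 and 8.62 TPM in MecomWT:R751W (0.06, SE 0.16).

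Xbp1, the transcription factor whose mRNA IRE1 splices, was at 36.8, 31.85 and 39.9 TPM in WT and 31.0, 30.9 and 33.3 TPM in MecomWT:R751W (-0.18, SE 0.13), with overlap through WT replicate 2, and -0.11 without WT replicate 3. Among genes that this branch is known to induce, Dnajb9, an ER co-chaperone that restrains IRE1, was at 56.4, 44.05 and 39.4 TPM in WT and 41.0, 34.25 and 37.5 TPM in MecomWT:R751W (-0.29, SE 0.15, adjusted p = 0.916 by limma). Manf, a secreted factor retained in the ER by BiP, was at 82.6, 70.8 and 61.2 TPM in WT and 60.5, 51.8 and 64.3 TPM in MecomWT:R751W (-0.27, SE 0.14, adjusted p = 0.919 by limma). In both, WT replicates 1 and 2 were the highest libraries, and without WT replicate 1 the log2 fold changes were -0.15 for Dnajb9 and -0.16 for Manf.

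Herpud1, a scaffold of ER-associated degradation, was at 33.7, 30.6 and 27.6 TPM in WT and 33.7, 24.1 and 27.5 TPM in MecomWT:R751W (-0.11, SE 0.15), and at -0.004 and -0.236 on the log2 fold change scale without MecomWT:R751W replicates 2 and 1. Creld2 stood at -0.12 (SE 0.14), or -0.005 without WT replicate 1, and Sdf2l1, which works with BiP, at -0.06 (SE 0.17) with only 510 implied reads over all libraries.

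The ATF4 and CHOP branch held the member with the largest difference, Ppp1r15a. It encodes GADD34, which brings a phosphatase to eIF2alpha and so ends the translational block. The gene lies on chromosome 7 from 45522917 to 45526268. It was at 336, 220.03 and 169.35 TPM in WT and at 169.83, 103 and 98.4 TPM in MecomWT:R751W. The mean in MecomWT:R751W cells was 51.1% of that in WT, and the genotypes overlapped narrowly, since MecomWT:R751W replicate 1 lay just above WT replicate 3. The log2 fold change was -0.95 (SE 0.24, 95% interval -1.47 to -0.43), with an adjusted p of 0.361 by limma and an exact two-sided permutation p of 0.2. It ranged from -1.20 without MecomWT:R751W replicate 1, where it passed (adjusted p = 0.0295 by limma), to -0.68 without WT replicate 1.

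Ppp1r15b, the constitutive paralog CReP, did not share that difference, with means of 30.7 and 31.4 TPM (log2 fold change 0.04, SE 0.13, 95% interval -0.25 to 0.33). Within libraries, the log2 ratio of Ppp1r15a to Ppp1r15b, chosen after the values were seen, was 3.27, 2.96 and 2.55 in WT and 2.35, 1.76 and 1.69 in MecomWT:R751W. These ratios did not overlap, with a difference of -0.99 (SD 0.36 and 0.36, n = 3 each, exact two-sided permutation p = 0.1) that ranged from -1.20 to -0.82 with each library left out. Because both genes were picked from their values, this p is not a separate test of Ppp1r15a.

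Atf4, the transcription factor at the centre of the integrated stress response, was at 170, 134 and 122 TPM in WT and 120.4, 101 and 98.8 TPM in MecomWT:R751W. It lies on chromosome 15 from 80255184 to 80257545. Every MecomWT:R751W library was below every WT library, though replicate 1 of the former and replicate 3 of the latter were close. The log2 fold change was -0.40 (SE 0.15, adjusted p = 0.674 by limma, exact two-sided permutation p = 0.1) and was -0.27 without WT replicate 1. Set against Eif2ak4 within each library, Atf4 overlapped between genotypes (difference in log2 ratio -0.45, exact two-sided permutation p = 0.2). This ratio too was chosen after the values were seen.

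Ddit3, which encodes the factor CHOP, was at 17.1, 13.5 and 12.73 TPM in WT and 11.02, 9.48 and 12.92 TPM in MecomWT:R751W (-0.35, SE 0.17), and -0.23 without WT replicate 1. Mbd6 and Mars1, which overlap Ddit3 in the annotation, averaged 23.2 and 16.3 TPM, above Ddit3 itself. Asns, the asparagine synthetase that ATF4 induces, was at 12.3, 11.9 and 9.95 TPM in WT and 8.62, 8.76 and 10.8 TPM in MecomWT:R751W (-0.26, SE 0.16). Trib3, a pseudokinase that curbs ATF4, stood at -0.27 (SE 0.19) on 410 implied reads, and at -0.11 without MecomWT:R751W replicate 2. For Ddit3, Asns and Trib3 the genotypes overlapped.

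The kinases upstream of ATF4 were level. Eif2ak3, which encodes PERK, was at 11.9, 8.63 and 11.39 TPM in WT and 10, 9.77 and 11.42 TPM in MecomWT:R751W (-0.02, SE 0.16, 95% interval -0.38 to 0.33). Eif2ak4, the amino acid sensor GCN2, had means of 23.5 and 24.2 TPM (0.05, SE 0.13), and Sesn2, a stress-induced inhibitor of mTORC1 signalling, 3.82 and 3.89 TPM (0.03, SE 0.22). In all, 6 of the 9 members with a row were below 0, with a median of -0.26, which was -0.11 without MecomWT:R751W replicate 2. All tested genes had a median of 0.053 without that library.

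Promoters of the branch were searched for TGATGNAA, the core of the composite element bound by ATF4 with a C/EBP factor, on both strands. It was in 3 of 9 members with a window, Asns, Chac1 and Trib3, and in Herpud1, while 3.97% of all windows held it, and the Trib3 match lay after the start. The match of Asns (chr6:7693215-7693242, minus strand) and that of Herpud1 (chr8:94386307-94386334, minus strand) are shown, with the match in capitals, as the ones upstream of genes with values here. The windows of Ppp1r15a, Atf4 and Ddit3 do not hold these letters.
Asns: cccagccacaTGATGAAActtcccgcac
Herpud1: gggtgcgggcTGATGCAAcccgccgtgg

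Of the 10 heat shock genes with a row, 7 lay above 0, with a median of 0.06 that was -0.02 without WT replicate 2, and Dnajb1 had the lowest value. All tested genes had a median of -0.065 without WT replicate 2. Dnajb1, the heat-inducible HSP40 that feeds clients to HSP70 and restrains HSF1, was at 41.8, 35.1 and 36.2 TPM in WT and 34.2, 25.7 and 30.7 TPM in MecomWT:R751W. All 3 MecomWT:R751W libraries were lower than any WT library (log2 fold change -0.31, SE 0.14, adjusted p = 0.825 by limma, exact two-sided permutation p = 0.1). The value was -0.21 without MecomWT:R751W replicate 2. Hsf1, the heat shock transcription factor, was at 22.5, 18.4 and 19.7 TPM in WT and 19.1, 14.6 and 20.3 TPM in MecomWT:R751W (-0.17, SE 0.16), and at -0.03 without MecomWT:R751W replicate 2.

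Hspa8, the constitutive HSP70 of the cytosol, was at 515, 470.5 and 515 TPM in WT and 569, 531 and 547 TPM in MecomWT:R751W. Its libraries did not overlap between genotypes, with a small log2 fold change of 0.13 (SE 0.12, 95% interval -0.13 to 0.39, adjusted p = 1.0 by limma). Hsph1, an HSP110 that serves HSP70 as a nucleotide exchange factor, was at 36.66, 28.9 and 36.73 TPM in WT and 40.25, 37.03 and 36.97 TPM in MecomWT:R751W (0.16, SE 0.14), higher by a narrow margin, and at 0.05 without WT replicate 2. Within libraries, the log2 ratio of Dnajb1 to Hspa8, chosen after the values were seen, was -3.62, -3.75 and -3.83 in WT and -4.06, -4.37 and -4.15 in MecomWT:R751W, a difference of -0.46 (SD 0.11 and 0.16, n = 3 each, exact two-sided permutation p = 0.1). Because Dnajb1 was lower and Hspa8 higher in every MecomWT:R751W library, this ratio could not overlap, and its p was fixed by the choice of genes.

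**Figure D3:**
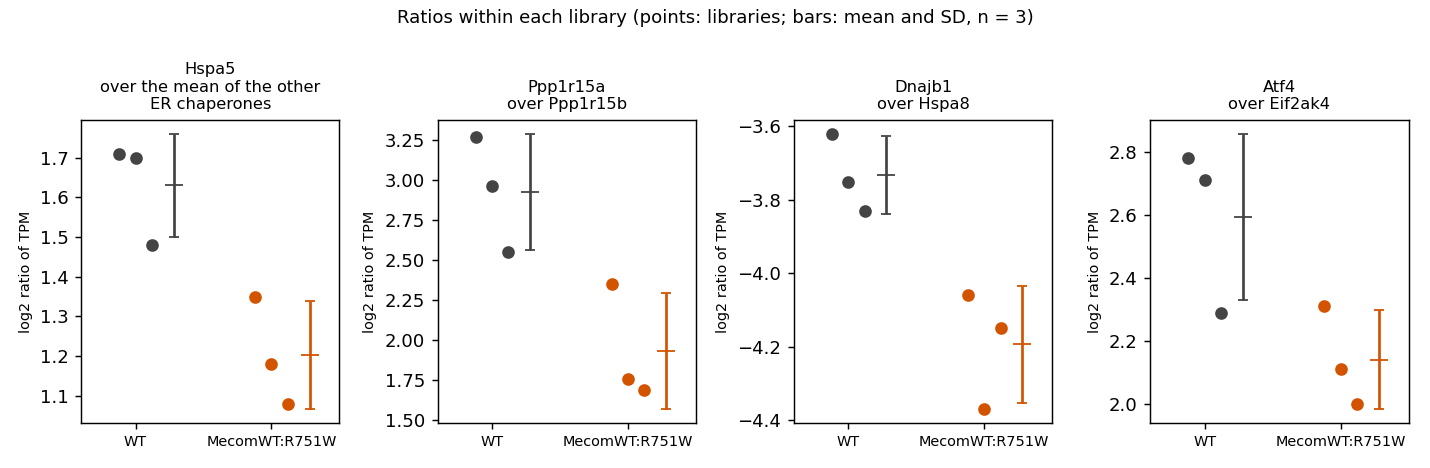
Log2 ratio of TPM within each library (y axes, not from 0) for Hspa5 over the mean of the other 9 ER chaperones, Ppp1r15a over Ppp1r15b, Dnajb1 over Hspa8 and Atf4 over Eif2ak4, with points for 3 WT and 3 MecomWT:R751W libraries and bars for the mean and SD. The genotypes are apart by -0.42, -0.99 and -0.46 in the order named, and overlap for Atf4 over Eif2ak4. Dnajb1 over Hspa8 could not overlap, as the 2 genes were already apart in opposite directions.

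The cytosolic HSP90 genes overlapped between genotypes. Hsp90ab1, the most abundant member, averaged 1636 ± 179.9 TPM among WT libraries and 1686 ± 47.1 TPM among the others (SD, n = 3), and its heat-inducible relative Hsp90aa1 had means of 292 and 304 TPM. Dnaja1, another HSP40, stood at -0.09 (SE 0.15), and Bag3, a co-chaperone of HSP70 in selective autophagy, at 0.05 (SE 0.16).

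Hspd1 and Hspe1 encode the mitochondrial chaperonin HSP60 and its partner HSP10, and they lie head to head on chromosome 1. A window of each held the same heat shock element, searched on both strands as GAA and TTC in alternation, 3 units with 2 bases of any kind between them. It was in 3 of 8 heat shock members with a window, these 2 and Hsph1, and in 0.603% of all windows. The shared site, inside the annotated span of Hspd1 and upstream of Hspe1, reads as follows on the plus strand (chr1:55088053-55088082), with 2 overlapping matches in capitals.
Hspe1 and Hspd1: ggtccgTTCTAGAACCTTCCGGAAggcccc

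Hspd1 was at 51.3, 35.65 and 40.45 TPM in WT and 52.1, 46.75 and 43.3 TPM in MecomWT:R751W (0.17, SE 0.15), and Hspe1 had means of 97.0 and 105.9 TPM (0.13, SE 0.13). Both values are uncertain, because the genes overlap each other in the annotation and a copy of Hspd1, Hspd1-ps3, stood at 81.3 to 116 TPM, above Hspd1 itself. The handling of reads shared between genes or copies was not given. The log2 fold change of Hspd1 was 0.05 without WT replicate 2 and 0.31 without WT replicate 1, and that of Hspe1 0.05 without WT replicate 3 and 0.23 without WT replicate 1.

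A single library weighed on most of the members. WT replicate 1 held the highest value in 25 of 37 members, 67.6% of them, against 30.4% of all tested genes. On the log2(TPM + 1) scale, its mean deviation from each gene's mean over the 6 libraries was 0.23 for the ER chaperones, 0.31 for the ATF6 or XBP1 branch, 0.28 for the ATF4 and CHOP branch and 0.12 for the heat shock genes, against 0.08 for all tested genes. MecomWT:R751W replicate 2 deviated by -0.26 in the ATF4 and CHOP branch, against -0.11 for all tested genes.

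Immediate early genes, which respond within minutes to stimulation or handling of cells, were ordered across libraries in the way of Ppp1r15a. The mean log2(TPM + 1) of the 22 with a row was 6.04, 5.53 and 5.19 in WT and 5.49, 4.88 and 4.73 in MecomWT:R751W. From the highest library to the lowest, this list and Ppp1r15a followed the same order, WT replicates 1 and 2, MecomWT:R751W replicate 1, WT replicate 3, then MecomWT:R751W replicates 2 and 3. Both fell from replicate 1 to replicate 3 within each genotype, and so did Hspa5 and Atf4. The order of Hspa5 and Atf4 differed only in that MecomWT:R751W replicate 1 lay below WT replicate 3. The log2 ratio of Hspa5 to the other ER chaperones also fell from replicate 1 to replicate 3 within each genotype. All 22 were below 0 between genotypes, with a median of -0.56, 11 of them at an unadjusted p under 0.05, against 51.0% of all tested genes below 0 and 3.23% lower at that p. The part of these genes in the differences of Ppp1r15a, Atf4 and Hspa5 was not tested.

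**Figure D4:**
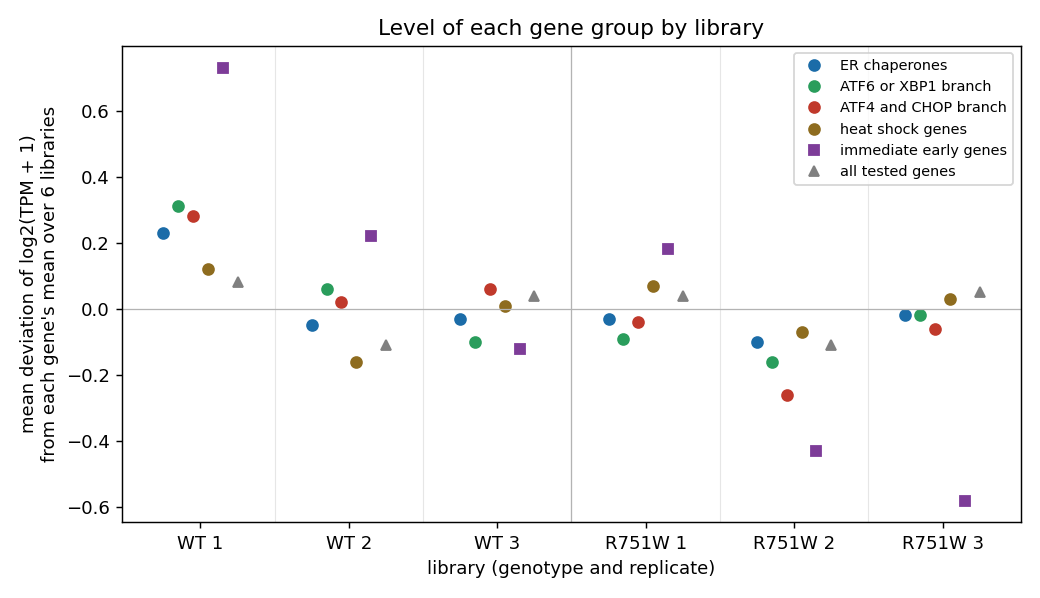
Mean deviation of log2(TPM + 1) from each gene's mean over 6 libraries (y axis), by library (x axis), for the 4 groups of stress genes, 22 immediate early genes and all tested genes. WT replicate 1 is the highest library for each of the 4 groups, and the immediate early genes spread from 0.73 in WT replicate 1 to -0.58 in MecomWT:R751W replicate 3.

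Hspa5 and Ppp1r15a were called by other fits to the same libraries. Over protein-coding rows alone, limma called 92 lower genes (0.807% of 11394) and 40 higher (0.351%), among them Ppp1r15a (adjusted p = 5.04e-06) and Hspa5 (adjusted p = 0.0315). With limma-voom on the implied reads, 26 lower (0.156%) and 24 higher genes (0.144%) were called, again with Hspa5 (adjusted p = 0.0357) and Ppp1r15a (adjusted p = 0.0383). In the protein-coding fit, limma drew each gene's variance far more toward the common trend (102 prior degrees of freedom, against 8.72 over all rows), and the SE of Ppp1r15a was 0.15 in place of 0.24. Leaving out a library there, a step added after the data were seen, removed the call of Hspa5 in 4 of 6 fits. Its adjusted p by limma was 0.294 and 0.097 without replicates 1 and 2 of WT, and 0.311 and 0.286 without replicates 2 and 3 of MecomWT:R751W. Ppp1r15a lost the call only without MecomWT:R751W replicate 2 (adjusted p = 0.0623 by limma). Without replicate 1 or 3 of either genotype, the prior degrees of freedom were infinite, so a gene's own spread did not enter its variance. The calls kept in those fits thus do not speak of the spread of Ppp1r15a itself. The prior degrees of freedom were 25.3 without WT replicate 2 (Ppp1r15a adjusted p = 0.0181 by limma) and 25.1 without MecomWT:R751W replicate 2.

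Other genes of the same pathways were counted from 3 wider lists. Of 44 further genes of ER folding, translocation and degradation, 31 were below 0 (70.5%, against 51.0% of all tested genes), with a median of -0.04, and 0 passed the adjusted threshold. There were 3 lower and 0 higher at an unadjusted p under 0.05 (3.23% and 2.74% of all tested genes), Txndc11, a thioredoxin-like ER protein, at 17.99 ± 3.14 TPM against 12.95 ± 1.62 TPM for WT and MecomWT:R751W, Sdf2, a relative of Sdf2l1, at 15.5 ± 2.22 and 11.4 ± 0.734 TPM, and Selenos, a selenoprotein of ER-associated degradation, at 26.6 ± 4.87 and 20.5 ± 2.22 TPM (SD, n = 3). These 3 did not overlap between genotypes, and in the whole list 7 of 44 lay wholly lower and 0 wholly higher, against 4.7% and 4.5% of all tested genes.

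Of 40 tested genes of the integrated stress response, 23 were above 0, with a median of 0.03. Nupr1, a stress-induced chromatin protein, was higher in every MecomWT:R751W library, at 30.3, 16.8 and 20.3 TPM against 10.01, 11.5 and 14.3 TPM in WT (0.83, SE 0.20, adjusted p = 0.326 by limma over all genes, 0.000349 over protein-coding genes and 0.18 with voom). Pck2, the mitochondrial PEPCK that ATF4 induces, was higher too, at 37.3 ± 5.20 against 27.8 ± 4.16 TPM (0.41, SE 0.15), and Jdp2, a repressor of the AP-1 family, lower, at 11.8 ± 1.83 against 19.6 ± 7.41 TPM (-0.64, SE 0.23, adjusted p = 0.669 by limma over all genes, 0.022 over protein-coding genes and 0.272 with voom), both without overlap, although WT replicate 3 and MecomWT:R751W replicate 2 were nearly equal in Jdp2. Of 45 further chaperone, co-chaperone and ubiquitin genes, mostly but not only of the cytosol, 24 were below 0, with a median of -0.01. Serpinh1, a collagen chaperone of the ER, stood at 0.66 (SE 0.23), Dnajb6, an HSP40, at -0.43 (SE 0.19), and Fkbp5, a steroid-responsive HSP90 partner, at 0.30 (SE 0.14). As in the ER list, 0 genes of either list passed the adjusted threshold over all genes. The integrated stress list held 2 higher and 2 lower genes at an unadjusted p under 0.05, and the chaperone list 1 of each, against 2.74% higher and 3.23% lower among all tested genes.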

How the data were processed

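The authors deposited TPM values, 1 column per library that sums to 1000000, for 18465 genes. Per the submitters' processing notes, the build mm10 and DESeq2 were used, with no role stated, while the aligner, counting tool, strand setting and annotation were not given in the sources used here. Symbols were looked up in a RefSeq table of GRCm38.p6, the assembly behind mm10, where 18465 matched and 12552 were protein-coding, with 25.9% to 30.1% of TPM. Dividing out 1 factor per library gave whole reads for 100.0% of genes (tolerance 0.001 reads).

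The 16655 genes that averaged 1 TPM or more, all 37 members with a row among them, were tested on log2(TPM + 1) with limma 3.58.1 (R 4.3.3), two-sided, using a trend of variance on level and genotype alone, with Benjamini-Hochberg adjustment at 0.05. This limma test was checked on simulated data with known changes, all larger in size than those of the members. It does not tell how often differences as small as theirs would be found. Other steps used Python 3.11.15. The members, lists, promoter motifs and alternatives were chosen with earlier results of these data known. Values per library are given for the defining members and, in each of the 4 groups, the 4 members of smallest unadjusted p, and up to 3 genes of smallest unadjusted p are named per wider list. Protein tails, listed in the design, are not analysed here. Alternatives changed the pseudocount, the filter, the scaling, the genes included, the variance model and the replicate block, used voom on implied reads, or left out each library in turn.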

Additional observations from a re-analysis of the deposited data

How the results depend on the processing

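Of the 37 members, 22 kept their sign in every setting tried, and the other 15 had log2 fold changes of at most 0.09 in size in the reported fit. Outside the settings that leave out a library, Dnajc3, Pdia3 and Pdia4 turned, to 0.009, 0.008 and 0.01 with libraries centred on the median of tested genes and to 0.006, 0.004 and 0.008 with voom, and Pdia4 to 0.001 after rescaling over protein-coding genes. With 1 library left out, the log2 fold changes of the 15 that turned ranged from -0.134 to 0.035 for Hsp90b1, from -0.096 to 0.107 for Dnajc3, from -0.098 to 0.058 for Canx, from -0.072 to 0.074 for Pdia3, from -0.073 to 0.104 for Pdia4, from -0.118 to 0.039 for Pdia6, from -0.152 to 0.059 for Eif2ak3, from -0.171 to 0.042 for Sdf2l1, from -0.043 to 0.093 for Eif2ak4, from -0.015 to 0.132 for Ppp1r15b, from -0.132 to 0.191 for Sesn2, from -0.043 to 0.111 for Hsp90ab1, from -0.071 to 0.13 for Bag3, from -0.199 to 0.009 for Dnaja1, and from -0.043 to 0.136 for Atf6. The median of all tested genes also moved with 1 library left out, from -0.0646 without WT replicate 2 to 0.0531 without MecomWT:R751W replicate 2. The cause was not tested.

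Against 0 called genes in the reported fit, 1 higher and 1 lower gene were called at a mean of at least 5 TPM, 40 and 92 among protein-coding genes with 2 members, 7 and 4 without small and ribosomal RNA genes, and 24 and 26 with voom with 2 members. With a library left out, called genes ranged from 0 to 6 higher and 0 to 9 lower, and called members from 0 to 1, which was Ppp1r15a without MecomWT:R751W replicate 1. Among protein-coding genes, called members ranged from 0 to 3 with a library left out, an alternative added after the data were seen. The median of the ATF4 and CHOP branch ranged from -0.31 to -0.11. The other pseudocounts, scalings, the fit without a trend and that without a filter called 0 genes.

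The replicate numbers were shared between genotypes, with correlations of deviations of 0.14, 0.089 and 0.083 for equal numbers and -0.086 to 0.005 for others, so each library correlated best with its own number. As these did not all exceed 0.1, the numbers were not taken as pairs. With a replicate block, 0 genes and 0 members were called, and among protein-coding genes 1 member (Ppp1r15a). Over all genes, the block lowered the SE of Ppp1r15a from 0.24 to 0.09. It lowered that of Atf4 from 0.15 to 0.07 and of Hspa5 from 0.14 to 0.08, and raised that of Ern1 from 0.29 to 0.39. At 3 libraries a genotype an exact permutation p cannot fall below 0.1, and Trib3, Sesn2 and Sdf2l1, with the fewest implied reads, are the members that depth limits most.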
